A study of Mus musculus with 6 samples.

Results

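Tropomyosins and the actin-binding proteins of contractile cells were followed here through 10 genes: *Tpm1*, *Tpm2* and *Tpm4*, the smooth muscle actin gene *Acta2*, the calponin family genes *Tagln*, *Cnn1* and *Cnn2*, the regulatory myosin light chain gene *Myl9*, and *Flna* and *Palld*, which code for an actin crosslinker and an actin scaffold. They were found by their gene names among the 38553 genes of the deposited expression table. RNA-Seq had been carried out on craniofacial tissue dissected from mouse embryos at E12.5, with 3 control samples (*Rbfox2* flox/flox) and 3 mutant samples (Pax3Cre/+:Rbfox2 flox/flox). Both groups carried floxed *Rbfox2* alleles and only the mutants carried *Pax3Cre*, a knock-in driver that is active in neural crest cells, the dorsal neural tube and somites, so the driver allele and the loss of *Rbfox2* cannot be told apart. Other cells of the dissected tissue kept *Rbfox2*. Expression was given as FPKM, a fragment count scaled to transcript length and to the mapped fragments of the sample, which allows levels of different genes to be set side by side. The read counts behind the values are not known, so no counting interval is given.

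Tropomyosins are coiled-coil proteins that lie along actin filaments and set which other proteins reach the filament. Tropomyosin genes make several forms through alternative promoters and exons, and *Tpm1* and *Tpm2* are used by smooth and striated muscle as well as by other cells. Smooth muscle actin, transgelin and the calponins mark contractile and myofibroblast-like cells, and many genes of this kind are activated by serum response factor, which binds the CArG box.

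The values of this table are sums over all transcripts of a gene, and the exons printed here show what such a sum hides. In GENCODE M21 the *Tpm1* gene lies on the minus strand of GRCm38 at chr9:67022590-67049406 and has 16 coding transcripts. A pair of internal coding exons of 76 bases exclude each other. The one at chr9:67031951-67032026 is carried by 10 of the 16 coding transcripts and the one at chr9:67032466-67032541 by the other 6. They are identical at 43 of 76 positions (56.6%), and bases that differ are in capitals.
Tpm1 exon in 10 transcripts: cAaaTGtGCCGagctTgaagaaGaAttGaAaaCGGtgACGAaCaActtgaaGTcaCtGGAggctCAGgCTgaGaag
Tpm1 exon in 6 transcripts: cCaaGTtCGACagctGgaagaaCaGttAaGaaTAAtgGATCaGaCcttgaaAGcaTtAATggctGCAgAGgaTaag
*Flna*, on the minus strand at chrX:74223461-74249820, has a coding exon of 24 bases (8 codons) at chrX:74232967-74232990 that 1 of its 6 coding transcripts carries.
Flna exon: tgtcaatcggaggtcacgggctag
Transcripts with and without these exons add to the same FPKM value, so the gene values do not show which exon was used.

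The promoters were searched for the CArG box, a stretch of 10 bases made of a pair of C, 6 bases that are each A or T, and a pair of G, which reads as the same motif on both strands. RefSeq promoters reach from 250 bases before to 50 bases after the gene start (GRCm38.p6), and 9 of the 10 genes had one. An exact box was found in 2 of these 9 genes, *Myl9* and *Cnn2*, and a box with at most 1 mismatch in 6 of 9 (*Tpm1*, *Acta2*, *Cnn2*, *Myl9*, *Flna* and *Palld*). *Tpm3*, the tropomyosin gene outside the group, had boxes with 1 mismatch too. They begin 66 bases before 1 of its starts and 162 and 57 bases before another. Counted by promoter, a box with at most 1 mismatch was found in 6 of the 11 promoters of these 9 genes. Of all 32851 promoters, 1.63% held an exact box and 21.1% a box with at most 1 mismatch. The stretches are shown 5′ to 3′ on the strand of the gene, with the boxes in capitals, because serum response factor binds this element. They come from chr2:156775283-156775394 (plus strand), chr10:79988524-79988573 (plus strand), chr19:34255438-34255467 and chr19:34255388-34255417 (both minus strand).
Myl9 promoter: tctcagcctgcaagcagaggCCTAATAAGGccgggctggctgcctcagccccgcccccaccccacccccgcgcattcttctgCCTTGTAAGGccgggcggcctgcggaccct
Cnn2 promoter: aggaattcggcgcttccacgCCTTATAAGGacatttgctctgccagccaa
Acta2, first box: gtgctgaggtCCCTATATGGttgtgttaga
Acta2, second box: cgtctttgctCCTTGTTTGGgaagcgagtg
The *Myl9* boxes begin 161 and 99 bases before the RefSeq start, the *Cnn2* box 56 bases before it, and the *Acta2* boxes 84 and 34 bases before it. In GENCODE M21 the *Acta2* and *Flna* boxes and the nearer *Tpm1* box lie within the gene, since an annotated transcript starts further upstream. A match describes the sequence and does not show a bound site.

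Mutant craniofacial tissue had lower mean levels of all 9 contractile genes that were abundant enough to test, although none of these differences passed the adjusted threshold. *Tpm1* and *Acta2* stood at 71.8% and 73.5% of their control means, *Tpm4* at 91.4%, and the other tested genes in between. Genes were tested where each control or each mutant sample exceeded 5 FPKM, which kept 10061 genes, and compared with limma on log2(FPKM + 1), which understates the change of low genes. Of all genes tested, 47.2% had a lower mean in mutants. An adjusted p under 0.05 was reached by none of the 9 genes and by 0% of all genes. An unadjusted p under 0.05 was reached by none of the 9 genes, against 1.66% of all genes in either direction and 0.954% with a lower mean in mutants. Without control replicate 1 it was reached by 7 of the 9, all lower in mutants, and by 3.75% of all genes in that direction. That fit kept mutant 1, the lowest sample for 8 of the 9. An unadjusted p under 0.05 was reached by none of the 9 without control replicate 2, control replicate 3 or mutant replicate 3. Without mutant replicate 1 or 2 it was reached by 1 and 2 of the 9, against 2.11% and 0.693% of all genes in that direction. With replicates 2 and 3 only it was reached by 6 of the 9 and by 5.74% of all genes in that direction. For none of them did all mutant values lie below all control values, which held for 2.37% of genes tested. The median log2 fold change was -0.28 for the 9 genes and 0.0057 for all genes tested. With *Cnn1*, which was too low to test, the median over all 10 was -0.26.

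Samples that share a replicate number deviated together across genes, although numbers 2 and 3 were not told apart from each other. Neither the labels nor the study states which control and mutant belong together, so the pairing by number rests on these same values. Blocked p-values and counts within numbers hold only if that pairing is real. Against the control of its own number the mutant was lower in all 3 numbers for 7 of the 9 genes. This was so for 13.1% of all genes tested. With the replicate number as a block in the fit, 6 of the 9 genes (*Tpm1*, *Tpm4*, *Acta2*, *Cnn2*, *Myl9* and *Flna*) had an unadjusted p under 0.05, all lower in mutants. That fit gave such a p, with a lower mean in mutants, to 3.70% of all genes. The smallest adjusted p of a contractile gene in the blocked fit was 0.384, for *Acta2*. *Tpm1*, *Palld* and transcripts of *Flna* were singled out by the study on these same samples, so their direction is not independent evidence.

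Some facts of the whole series touch these values. *Rbfox2*, the targeted gene, was at 58.4, 65.0 and 61.3 FPKM in controls 1 to 3 and at 38.1, 36.3 and 34.3 in mutants 1 to 3 with no overlap, as the labels have it. Its adjusted p by limma was 0.138, and 0.085 in the blocked fit, so the targeted gene did not pass the threshold either. The first principal component held 54.7% of the variance and set the first replicates of both groups (-19.1 and -17.0) apart from the other 4 samples (7.55 to 11.0). The contractile genes moved along the same split: the median difference between the first sample and the mean of the others of its group was -0.37 on the log2 scale both in controls and in mutants, against -0.050 and -0.059 for all genes tested.

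*Tpm1* was the most abundant gene of the group by its control mean, and it and *Acta2* had the largest mean differences. Controls 1 to 3 had 213, 361 and 317 FPKM, and mutants 1 to 3 had 179, 233 and 228. Controls 2 and 3 were well above every mutant, while control 1 lay below mutants 2 and 3, so the groups overlapped. The log2 fold change was -0.45 (SE 0.21, 95% confidence interval -0.94 to 0.037), with an unadjusted p of 0.065 and an adjusted p of 0.99999 by limma. Only 0.646% of genes tested had a lower log2 fold change. An exact two-sided permutation test gave p = 0.3, where 3 samples against 3 cannot go below 0.10. Within replicate numbers the differences were -0.25, -0.63 and -0.47, and the blocked fit gave an SE of 0.079, an unadjusted p of 0.0014 and an adjusted p of 0.556. When single samples were left out the log2 fold change ran from -0.67 (without control replicate 1) to -0.29 (without control replicate 2).

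*Tpm2* codes for β-tropomyosin, which is abundant in muscle. Controls had 46.5, 105 and 66.5 FPKM and mutants had 46.2, 66.1 and 58.4. A single sample, control 2, stood far above the rest, and the other values of the groups were interleaved. The log2 fold change of -0.28 (SE 0.28) had an adjusted p of 0.99999 and rested on that control, since it was 0.017 without it and -0.56 without control replicate 1.

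*Tpm4* makes a short tropomyosin of non-muscle and smooth muscle cells. It had 228, 269 and 274 FPKM in controls, and mutants had 208, 240 and 256, with the first sample lowest in each group and the groups overlapping. Its log2 fold change of -0.13 (SE 0.12) was the smallest of the 9, and the within-number differences were close to one another at -0.13, -0.17 and -0.10. In the blocked fit the SE was 0.048 and the unadjusted p 0.036, while a covariate for the Y-linked genes brought the log2 fold change to 0.0031 (SE 0.17). With single samples left out it ran from -0.21 (without control replicate 1) to -0.05 (without mutant replicate 1). Its exons touch annotated genes of the opposite strand (*Gm26586* and *Gm16091*), and the strand setting of the counting is not given in the sources used here.

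*Tpm3*, the tropomyosin gene outside the group, served as a comparison. It had 155, 161 and 156 FPKM in controls, and mutants had 155, 160 and 163, so all 6 samples were nearly level, also the first replicates. The log2 fold change was 0.018 (SE 0.073). Of the summed FPKM of *Tpm1* to *Tpm4*, *Tpm1* made up 33.2%, 40.3% and 38.9% in controls and 30.4%, 33.3% and 32.3% in mutants. This came to 37.5% ± 3.78 (SD, n = 3) against 32.0% ± 1.49 (SD, n = 3), with overlapping groups and p = 0.2 in an exact two-sided permutation test. In each number the mutant's share was below that of its control. *Tpm3* made up 24.1%, 18.0% and 19.2% in controls and 26.4%, 22.9% and 23.0% in mutants, above its control in each number. The shares of *Tpm3* (20.4% and 24.1%), *Tpm4* (33.1% and 35.4%) and *Tpm2* (9.03% and 8.53%) had overlapping groups too. *Tpm1* exceeded *Tpm4* in controls 2 and 3, and *Tpm4* exceeded *Tpm1* in control 1 and in all 3 mutants.

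**Figure D1:**
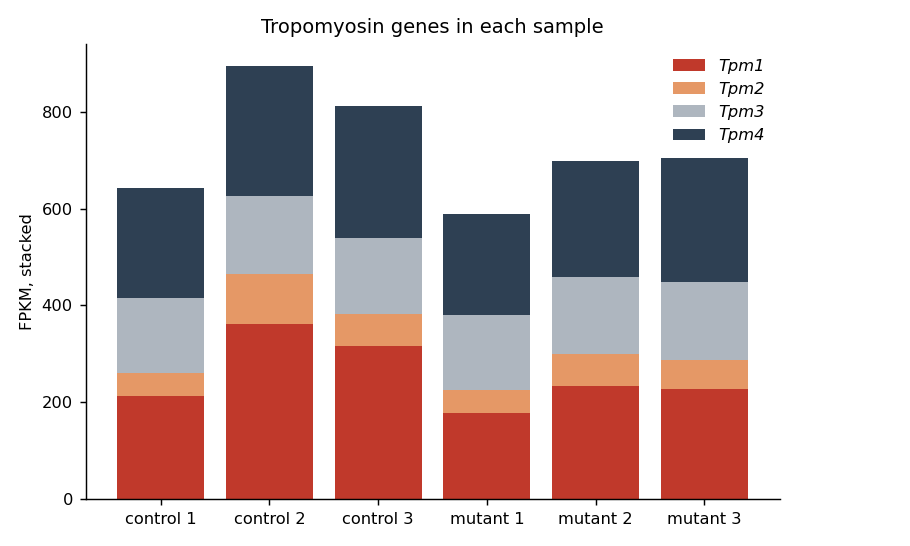
FPKM of the tropomyosin genes *Tpm1*, *Tpm2*, *Tpm3* and *Tpm4*, stacked, in each of the 3 control and 3 mutant samples. The stacks reach 642, 895 and 813 FPKM in controls and 588, 699 and 706 in mutants, and the *Tpm3* segment is nearly the same height in all 6 samples.

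Among the genes of smooth muscle character, *Acta2* had the smallest p in the blocked fit. It codes for α-smooth muscle actin and had 45.6, 69.4 and 58.2 FPKM in controls, and mutants had 33.9, 54.0 and 39.5. In each number the mutant lay below its control, although mutant 2 was above control 1, so the groups overlapped. The log2 fold change was -0.44 (SE 0.20, 95% confidence interval -0.92 to 0.041), the unadjusted p 0.067 and the adjusted p 0.99999 by limma. The differences within numbers were -0.42, -0.36 and -0.55, and the blocked fit gave an SE of 0.058, an unadjusted p of 0.00031 and the adjusted p of 0.384 stated above.

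*Tagln* codes for transgelin, a calponin-like protein on smooth muscle actin filaments. It had 17.4, 16.0 and 16.8 FPKM in controls, and mutants had 10.2, 16.4 and 13.2. The controls were close to one another and the mutants were not: mutants 1 and 3 were below every control and mutant 2 lay among them. Its log2 fold change was -0.34 (SE 0.16), with an unadjusted p of 0.066, and the difference in number 2 was 0.04. It ran from -0.49 (without mutant replicate 2) to -0.17 (without mutant replicate 1) when single samples were left out, and was -0.15 with replicates 2 and 3 only. The exons of *Tagln* touch the annotated spans of *Pcsk7* and *Gm48529* on the opposite strand.

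*Cnn1*, the calponin of mature smooth muscle, was below 0.5 FPKM in every sample, with 0.460, 0.278 and 0.378 in controls and 0.284, 0.442 and 0.416 in mutants. No direction can be read from values this low. *Cnn2*, the calponin of non-muscle and smooth muscle cells, had 98.4, 125 and 118 FPKM in controls, and mutants had 88.7, 101 and 101. Controls 2 and 3 were above every mutant and control 1 was between mutant 1 and the other mutants. Its log2 fold change was -0.23 (SE 0.11), with an unadjusted p of 0.083 and, in the blocked fit, of 0.0051 (adjusted p = 0.729).

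*Myl9* codes for the regulatory light chain of smooth muscle and non-muscle myosin, whose phosphorylation switches the motor on. It had 64.8, 92.2 and 88.5 FPKM in controls, and mutants had 48.4, 77.6 and 68.3. Each mutant was below the control of its number, and mutants 2 and 3 were above control 1. At -0.34 (SE 0.20) the log2 fold change had an unadjusted p of 0.133, and leaving out mutant replicate 1 gave -0.15 and leaving out control replicate 1 gave -0.50. Its differences within numbers (-0.41, -0.25 and -0.37) were about as even as those of *Acta2*, and the blocked fit gave an SE of 0.054 and an unadjusted p of 0.00084 (adjusted p = 0.556).

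*Flna* and *Palld* organise filaments and do not contract. *Flna* codes for filamin A, which crosslinks actin into networks and ties them to the membrane. It had 142, 195 and 172 FPKM in controls, and mutants had 129, 146 and 159, where controls 2 and 3 were above every mutant and control 1 was below mutants 2 and 3. On the log2 scale the fold change was -0.22 (SE 0.14), with an unadjusted p of 0.157 and, in the blocked fit, of 0.025 (adjusted p = 0.809). The value was -0.34 without control replicate 1, -0.11 without control replicate 2, -0.14 without mutant replicate 1 and -0.08 (SE 0.20) with the Y-linked covariate.

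*Palld* codes for palladin, a scaffold of actin bundles and focal adhesions. It had 32.5, 41.8 and 35.6 FPKM in controls, and mutants had 33.9, 28.5 and 30.4. Its order of samples differed from most of the other genes: mutant 1 was the highest mutant and exceeded control 1, and mutant 2 was the lowest sample of all. The log2 fold change of -0.23 (SE 0.11) had an unadjusted p of 0.080, and 0.086 in the blocked fit, and was -0.14 without control replicate 2. Its exons touch the annotated span of *4930512H18Rik* on the opposite strand.

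**Figure D2:**
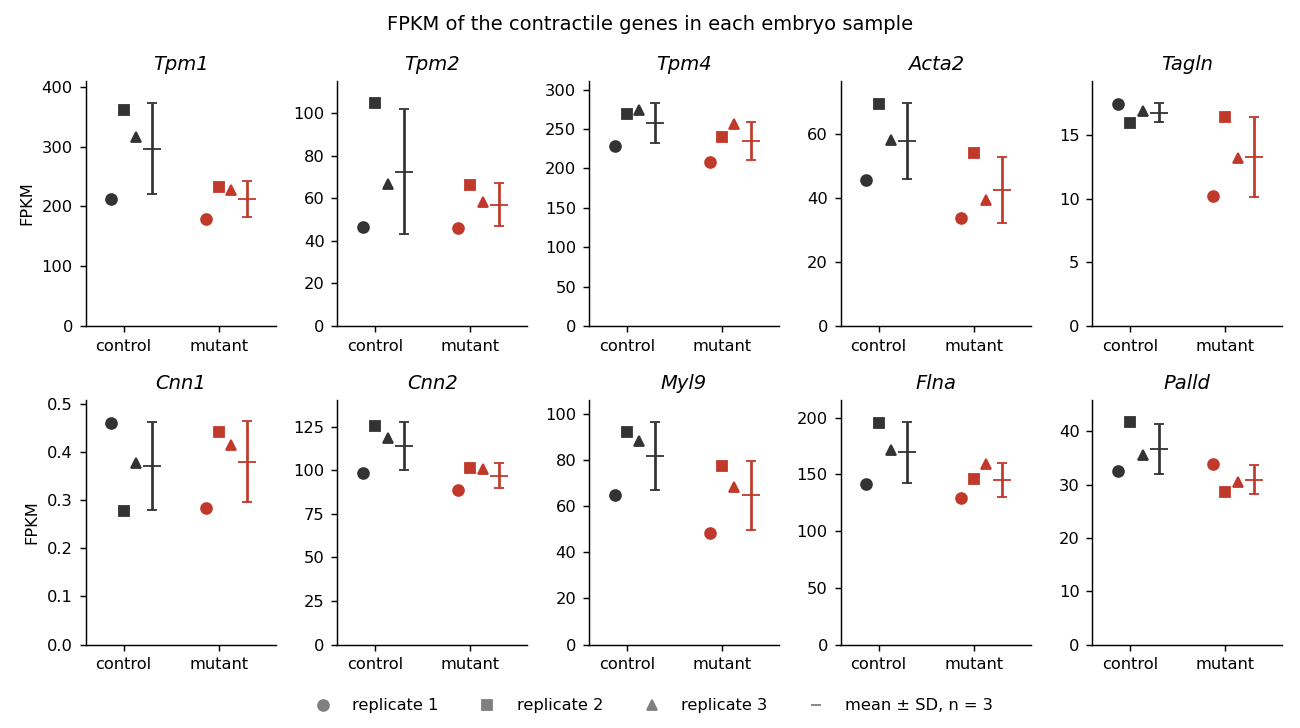
FPKM of the 10 contractile genes in each control (black) and mutant (red) sample, with the replicate number as the symbol and the mean and SD of each group (n = 3) beside the points. In 8 of the 9 genes tested mutant 1 is the lowest sample, in 7 of them control 2 is the highest, and no gene has groups that do not overlap.

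By control mean the genes ran from *Tpm1* (297 ± 75.8 FPKM, SD, n = 3) over *Tpm4* (257 ± 25.5), *Flna* (170 ± 26.8), *Cnn2* (114 ± 13.9), *Myl9* (81.9 ± 14.9), *Tpm2* (72.5 ± 29.5), *Acta2* (57.8 ± 11.9), *Palld* (36.6 ± 4.73) and *Tagln* (16.7 ± 0.740) to *Cnn1* (0.372 ± 0.0915). The control ranges of neighbours in this order overlapped for *Tpm1* with *Tpm4*, *Myl9* with *Tpm2* and *Tpm2* with *Acta2*, and were apart for the others. *Tpm2*, *Acta2* and *Tpm1* varied most among the 6 samples, with 2.26-fold, 2.05-fold and 2.02-fold between the highest and lowest sample, and *Tpm4* least, with 1.32-fold.

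**Figure D3:**
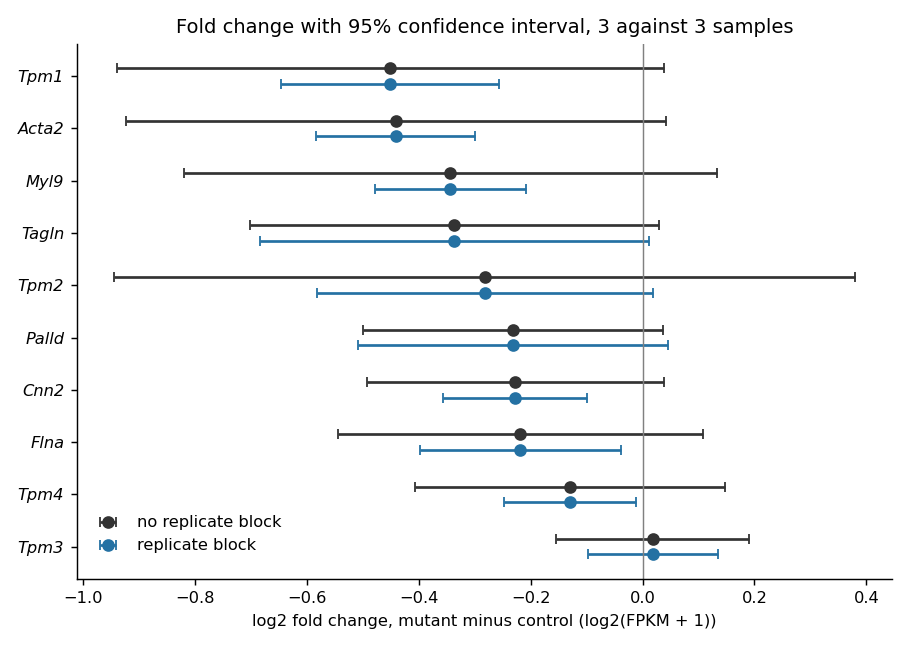
Log2 fold change, mutant minus control, of log2(FPKM + 1) with its 95% confidence interval for *Tpm3* and the 9 contractile genes tested, from the fit without (black) and with (blue) the replicate number as a block. Without the block all intervals include 0, and with it those of *Tpm1*, *Acta2*, *Myl9*, *Cnn2*, *Flna* and *Tpm4* lie below 0.

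The genes whose pattern over the 6 samples was most like that of *Tpm1* were *Pgam2*, a muscle form of the glycolytic enzyme phosphoglycerate mutase, *Mical3* (ENSMUSG00000051586), of a family of actin-oxidising enzymes, and *Col5a2*, a chain of type V collagen. Their root mean square differences from *Tpm1* in centred log2(FPKM + 1) were 0.065, 0.11 and 0.11, where the median over all genes tested was 0.34. A further row named *Mical3* (ENSMUSG00000003178) had a log2 fold change of 0.05, against -0.32 for the row that was alike. Like *Tpm1*, *Pgam2* was highest in control 2 and lowest in mutant 1. For *Acta2* they were *Olfml2b*, which codes for a secreted olfactomedin-domain protein, *Myl9* and *S100a10*, which codes for a partner of annexin A2, at 0.11, 0.11 and 0.12. *S100a10* had 132, 176 and 162 FPKM in controls, and mutants had 102, 145 and 130, below its control in each number. All these genes were picked by likeness over these same samples, so the sample orders they share largely follow from that choice.

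Other genes of the actomyosin system did not share a common direction. A list of 34 such genes (other actins, myosins, filamins, α-actinins, calponin relatives and regulators) had 29 tested, of which 17 had a lower and 12 a higher mean in mutants, with a median log2 fold change of -0.038. No adjusted p of the list was under 0.05. An unadjusted p under 0.05 was found for *Csrp1* and *Tagln3*, in opposite directions, and for 1.66% of all genes tested. The list had no such p with the Y-linked covariate or without control replicate 2, control replicate 3 or mutant replicate 3. *Tagln3* was also singled out by the study on these samples. *Csrp1*, which codes for a LIM protein of actin bundles, had 52.6, 58.2 and 57.6 FPKM in controls, and mutants had 47.2, 50.4 and 46.0, with no overlap (log2 fold change -0.23, SE 0.08). *Tagln3*, the transgelin relative of neurons, had 85.8, 68.6 and 81.8 FPKM in controls, and mutants had 86.7, 97.8 and 103, all above every control (log2 fold change 0.28, SE 0.11). In the blocked fit 3 genes of the list were lower and 2 higher at an unadjusted p under 0.05. That fit gave such a p to 604 of all 10061 genes, 372 of them lower in mutants.

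Serum response factor and its partners showed little difference. Of 8 genes (*Srf*, its myocardin-related cofactors and early targets) 5 were tested, all with a lower mean in mutants and none with an unadjusted p under 0.05 in either fit, at a median log2 fold change of -0.10. *Srf* had 17.4, 15.5 and 14.9 FPKM in controls, and mutants had 17.3, 14.9 and 15.1 (log2 fold change -0.01, SE 0.09). The target *Cyr61* had a log2 fold change of -0.10 (SE 0.08).

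**Figure D4:**
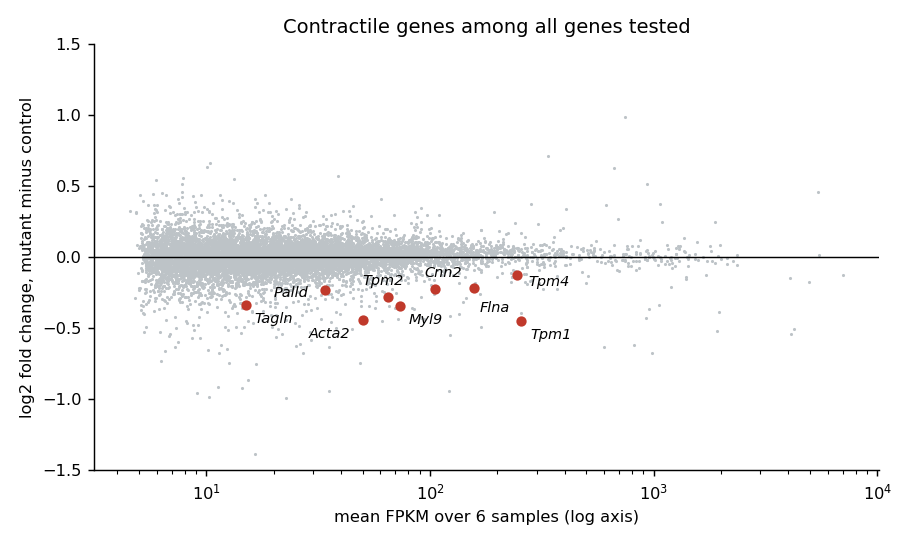
Log2 fold change, mutant minus control, against mean FPKM over the 6 samples (log axis) for the 10061 genes tested (grey), with the 9 contractile genes in red. The red points all lie below 0, between -0.13 and -0.45, and 6 grey genes fall outside the plotted range of 1.5 in either direction.

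Defining markers of smooth muscle were low in this tissue. *Myh11*, *Lmod1* and *Myocd* were below 1 FPKM in every sample, as *Cnn1* was, while *Actg2* ranged from 1.47 to 2.94, *Synpo2* from 3.58 to 5.47 and *Des*, which skeletal muscle shares, from 4.59 to 11.6, and none was at 0. Only *Smtn* of the 7 markers passed the filter, at 16.1, 18.6 and 17.1 FPKM in controls against 14.7, 15.7 and 15.1 in mutants (log2 fold change -0.18, SE 0.08, unadjusted p 0.063, blocked 0.026). All 7 markers summed to 28.1 to 39.3 FPKM in controls and 26.2 to 30.7 in mutants. Of 7 pericyte markers 3 were tested, with a median log2 fold change of 0.030, and of the 4 below the filter *Anpep*, *Cspg4* and *Abcc9* had log2 fold changes of -0.45, -0.20 and -0.15 and *Kcnj8* of 0.03. In bulk tissue fewer cells of a type and less RNA per cell cannot be told apart.

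Skeletal muscle markers had lower means in mutants, as the contractile genes had. This held for all 10 that were tested of 12 (median log2 fold change -0.44), none with an unadjusted p under 0.05 and 8 with one in the blocked fit. Of all genes tested, 47.2% had a lower mean in mutants, 0.954% with an unadjusted p under 0.05 and 3.70% with one in the blocked fit. All 12 markers together summed to 229 to 670.2 FPKM in controls and 223 to 367 in mutants, and none was at 0. The most abundant, *Actc1* and *Mylpf*, had log2 fold changes of -0.43 (SE 0.31) and -0.45 (SE 0.46). *Myl1* (log2 fold change -0.58, SE 0.47) was also singled out by the study, which reported it as significantly reduced in knockout tissue by quantitative PCR. Within numbers 1, 2 and 3 the median difference was -0.035, -0.81 and -0.46 for the skeletal muscle markers and -0.15, -0.36 and -0.23 for the contractile genes. In number 1 the contractile genes ranged from -0.72 (*Tagln*) to 0.06 (*Palld*). The part of muscle content in the result was not tested.

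Among markers of other cells, all 8 neuron markers had a higher mean in mutants, *Tubb3*, *Map2*, *Elavl3* and *Dcx* with an unadjusted p under 0.05 and 6 of the 8 in the blocked fit. Of all 10061 genes tested, 167 had such a p without the block (96 lower in mutants) and 604 with it (372 lower). A lower mean in mutants was found for 47.2% of them. *Tubb3* and *Map2* were also singled out by the study on these samples. The neuron markers summed to 763 to 854 FPKM in controls and 914 to 1019 in mutants, with no overlap. All 5 erythroid markers tested had a higher mean (median 0.45), none with an unadjusted p under 0.05 and 3 with one in the blocked fit, and the 6 of the list had overlapping sums of 5185 to 10510.2 and 7079 to 11047 FPKM. Lower means were found for 8 of 10 cranial mesenchyme markers (median -0.081) and 5 of 6 epithelial markers (median -0.15), none with an unadjusted p under 0.05, although the epithelial *Krt14* had one of 0.0094 in the blocked fit. The mesenchyme markers summed to 649.9 to 784 FPKM in controls and 628 to 693 in mutants, and the epithelial markers to 82.2 to 133 and 83.8 to 109. Means were lower for 2 of 6 endothelial and 1 of 6 forebrain progenitor markers, none with an unadjusted p under 0.05. The part of these cell types in the result was not tested.

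**Figure D5:**
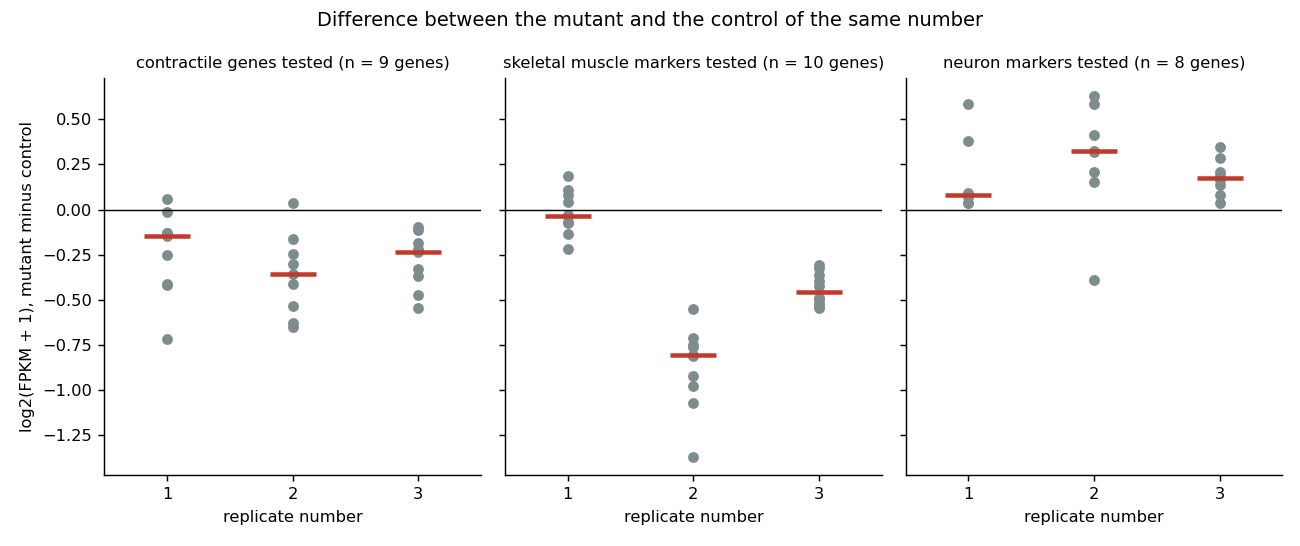
Difference in log2(FPKM + 1) between the mutant and the control of the same replicate number, for the 9 contractile genes, 10 skeletal muscle markers and 8 neuron markers tested, with 1 point per gene and the median as a red bar. In number 1 the muscle markers scatter around 0 (-0.22 to 0.19) while 8 of the 9 contractile genes lie below it, and in numbers 2 and 3 the medians of both sets lie below 0 and that of the neuron markers above it.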

How the data were processed

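Poly(A)+ stranded RNA-Seq of 3 control and 3 mutant samples, which the labels call independent biological replicates, was used. Each gene's FPKM in each sample was deposited by the authors, and the submitters' processing notes name FastQC 0.11.4, STAR, Cuffdiff and GRCm38, while the annotation release and the step that made the gene table are not given in the sources used here. FPKM hides the read count, and the study gives only a range of reads per sample, so the exact depth of each sample is unknown. Of the gene identifiers, 95.0% were found in GENCODE M21, which gave coordinates, transcripts and strands.

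Genes above 5 FPKM in each control or each mutant sample, a threshold taken from the study's methods, were compared on log2(FPKM + 1) with limma 3.58.1 (R 4.3.3), with an intensity trend, no covariates and Benjamini-Hochberg adjustment over all 10061 genes. Single genes also had an exact two-sided permutation test. The scripts were tested on simulated data. Deviations from group means correlated at 0.64, 0.26 and 0.51 between same-numbered controls and mutants, across genes, while control 3 with mutant 2 and control 2 with mutant 3 gave 0.40 and 0.23 and pairs of a first replicate with another were negative, so that numbers 2 and 3 are not told apart. All same-numbered pairs exceeded 0.1, so a blocked fit on these numbers is also given, although the labels and the study name no such pairing. The genes followed and all lists were chosen with earlier results of these data known. Named genes are those 10, *Rbfox2*, *Tpm3* and the 3 genes most like *Tpm1* and *Acta2*. From the wider actomyosin, serum response factor, skeletal muscle and neuron lists, genes with an unadjusted p under 0.05 were named, or otherwise the most abundant members. *Myl1*, *Myh11*, *Lmod1*, *Myocd* and *Krt14* were named in addition, with the other defining markers of smooth muscle and the pericyte markers below the filter, after their values were seen. Alternatives covered pseudocount, scaling, filter, variance model, a Y-linked covariate for the sex of the embryos, the first replicates, the replicate block and leaving out each sample. The sample labels used here do not give the sex of the embryos. The study lists an *Xist* transcript as lower in mutants, so sex may differ between the groups. The CArG box was searched in RefSeq promoters with up to 1 mismatch.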

Additional observations from a re-analysis of the deposited data

How the results depend on the processing

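The median log2 fold change of the contractile genes stayed between -0.40 and -0.16 in every alternative, and 8 or 9 of the 9 genes kept a lower mean in mutants. Over 16 alternatives for each of the 9 genes, 142 of 144 values kept their direction and none had an adjusted p under 0.05. The 2 exceptions were *Tpm2* without control replicate 2 (0.017, in a range of -0.56 to 0.017 when each sample was left out) and *Tpm4* with the Y-linked covariate (0.0031). The count of contractile genes with an unadjusted p under 0.05, 0 as reported, was 3 under median-ratio scaling, 3 under quantile normalization, 6 with the replicate block, 7 with a term for the first replicates and 6 with replicates 2 and 3 only, all lower in mutants. The share of all genes with such a p and a lower mean was 1.06%, 0.954%, 3.70%, 3.46% and 5.74% in these fits, against 0.954% as reported. The count ranged from 0 to 7 when each sample was left out, with 7 without control replicate 1, 2 without mutant replicate 2 and 1 without mutant replicate 1 (3.75%, 0.693% and 2.11% of all genes). For the wider actomyosin genes the count, 2 as reported, was 5 with the replicate block, 0 with the Y-linked covariate, 4 with a term for the first replicates and 5 with replicates 2 and 3 only, and ranged from 0 (without control replicate 2, control replicate 3 or mutant replicate 3) to 7 (without control replicate 1), with 1 without mutant replicate 2. Among all genes tested such a p, in either direction, was reached by 167 of 10061 as reported. It was reached by 604 with the block, 176 with the Y-linked covariate, 611 with a term for the first replicates and 1130 of 10258 with replicates 2 and 3 only. Without control replicate 1 it was reached by 690 of 10224 genes, and without control replicate 2 by 78 of 10098. The count of all genes with an adjusted p under 0.05, 0 as reported, was 3 with a term for the first replicates, 4 with replicates 2 and 3 only, and 0 to 5 when each sample was left out, with 5 without mutant replicate 3. The pairing by replicate number also moved the counts of skeletal muscle (0 to 8), neuron (4 to 6), erythroid (0 to 3), epithelial (0 to 1) and smooth muscle (0 to 1) markers with an unadjusted p under 0.05, and it changed no call by adjusted p. The causes of these shifts were not tested. The read counts are unknown, so counting error could not be told apart from the spread between samples.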
